A study of Mus musculus with 18 samples.

Results

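Long noncoding RNA levels were compared between plpSC, a germ cell type of the mouse testis taken at postnatal day 14, and priSG-A, a type taken at day 6. Both come from ICR mice. Cells were isolated by STA-PUT, a method that sorts them by how fast they sink, which large cells do faster. The labels do not spell the names out. In the field, SC usually stands for spermatocytes, the cells in meiosis, and SG for spermatogonia, the dividing cells that precede them. Each type has 3 libraries, numbered 1 to 3, among 18 libraries of 6 types in the series, and the labels name no animal or preparation. The p-values therefore reflect the variation among these 6 libraries, part or all of which may be technical. All 6 libraries had over 100 FPKM (fragments per kilobase, scaled to library size) at AY036118, a locus that lies on ribosomal RNA sequence. The comparison covers every locus with at least 1 FPKM in 3 or more of the 6 libraries. These are 1574 of the 13218 loci of the deposited table, and the remaining 11644 were not tested. Only 572 of the 1574 reached 1 FPKM in all 6 libraries, 1 entered through plpSC libraries alone and 8 through priSG-A libraries alone.

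In the mouse, spermatogonia divide by mitosis and then give way to spermatocytes, which enter meiosis for the first time in the second week after birth. Many long noncoding RNAs are made in the testis, some of them hosts of small nucleolar RNAs or microRNAs, some transcribed from 1 parental allele at imprinted loci, and many lying opposite coding genes. Imprinted RNAs such as H19 are silenced or expressed according to the parent of origin, and that mark is erased and set anew in germ cells. By GENCODE M21 type, the 1574 loci comprised 514 loci awaiting experimental support (TEC, 32.7%), 447 antisense (28.4%), 273 intergenic (lincRNA, 17.3%) and 208 processed transcripts (13.2%). Counted across all types, 595 of the 1574 share exon sequence with a coding gene on the other strand. The library kit does not mark strand, so reads of such a locus and of the coding gene cannot be told apart there.

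The 2 types differed little in replicates 1 and 2 and by much more in replicate 3. With all 6 libraries, no locus passed limma's test on log2(FPKM + 1) at an adjusted p of 0.05 (0 of 1574, 0%; 7 loci had an unadjusted p under 0.05, and the smallest adjusted p was 0.9999). With replicate 3 of both types left out, again none passed (0 of 1574, 0%; 36 loci with an unadjusted p under 0.05, smallest adjusted p 0.882). When the 4 libraries were compared within their replicate numbers, with the number as a block, 41 loci passed, 15 higher in plpSC (0.953% of those tested) and 26 lower (1.65%). Among the lower ones were Gm20412, Gm43078, Gm43126 and the imprinted microRNA host Mirg. Among the higher ones were the small nucleolar RNA host Snhg6 and the microRNA host Mir22hg. That fit has 1 residual degree of freedom and borrows its spread from all loci. The 41 became 0 with all 6 libraries under the same block, 0 after quantile normalization and 0 without the trend and robust estimation.

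MicroRNAs carried by H19, Mir22hg and Mirg are shown, and those of the other hosts described below are left out. They are mature sequences from RefSeq (GRCm38.p6), printed 5′ to 3′ with the seed, bases 2 to 8, in capitals. The first pair lies in H19 (chromosome 7, minus strand), the second in Mir22hg (chromosome 11, plus strand), and the last 4 are from Mirg (chromosome 12, plus strand), which holds 26 mature microRNAs of the table.
miR-675-5p: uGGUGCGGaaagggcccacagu
miR-675-3p: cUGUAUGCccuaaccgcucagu
miR-22-5p: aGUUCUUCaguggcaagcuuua
miR-22-3p: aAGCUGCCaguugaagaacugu
miR-134-5p: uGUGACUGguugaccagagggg
miR-410-3p: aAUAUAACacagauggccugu
miR-453: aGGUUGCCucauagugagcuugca
miR-496a-5p: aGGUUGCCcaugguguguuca
The last pair share a seed, and the other sequences shown each have their own. The libraries measured the host transcripts, not the mature microRNAs.

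The libraries grouped by replicate number more than by type. Across the 1574 loci on the log2 scale, Pearson's r between plpSC and priSG-A was 0.95 for replicate 1, 0.96 for replicate 2 and 0.81 for replicate 3. Within plpSC, r was 0.90 between replicates 1 and 2 but 0.48 and 0.51 between these and replicate 3. Within priSG-A, the same 3 values were 0.91, 0.72 and 0.78. These are descriptions across loci, which share their library and are not independent. The inferred depth did not set replicate 3 apart: it was 34.9, 47.3 and 43.0 M (mega) fragments in plpSC and 32.1, 56.7 and 46.6 M in priSG-A. The number of loci at 1 FPKM or more did: 1546, 1559 and 2802 of the whole table in plpSC, against 1639, 1495 and 2291 in priSG-A.

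**Figure D1:**
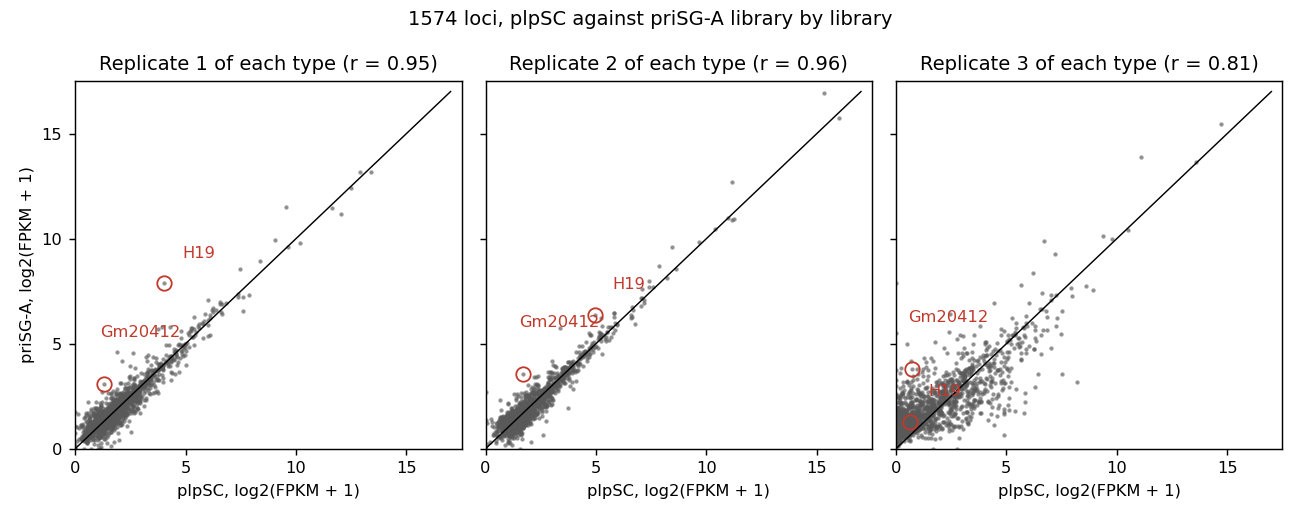
Level of each of the 1574 loci in log2(FPKM + 1), plpSC on the x axis and priSG-A on the y axis, 1 panel per replicate number, with the line of equal levels. Points hug the line in replicates 1 and 2 (r = 0.95 and 0.96) and scatter in replicate 3 (r = 0.81), and circled H19 and Gm20412 lie above the line in all 3 panels.

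The libraries labelled plpSC replicate 3 and priSG-A replicate 3 shared a set of loci that were low in the other 4. In both, 879 loci of the table reached 1 FPKM while staying below it in the other 4 libraries, with medians of 10.1 FPKM in plpSC replicate 3 and 2.55 FPKM in priSG-A replicate 3. Of these, 39.1% carry RIKEN names of the clone series made from adult testis, against 8.1% of the whole table and 6.8% of the 1574. The locus 1700027A15Rik, which shares exon sequence with the transition protein gene Tnp1 on the other strand, had 0, 0 and 874 FPKM in plpSC, against 0.139, 0 and 11.8 FPKM in priSG-A. Transition proteins are made by spermatids, which appear in the mouse testis later than either age sampled. Only the replicate 3 libraries were high there, and that of plpSC far more so. The table holds no gene of 9 lists of coding markers (spermatogonia, spermatocytes, spermatids, Sertoli, Leydig and peritubular cells, macrophages, blood and endothelium), so the types could be checked only through loci that overlap such genes. The locus sharing exon sequence with Gfra1, a spermatogonial receptor gene, on the other strand (Gm16277) had 0.313, 2.29 and 4.26 FPKM in plpSC, against 0.539, 1.05 and 0.813 FPKM in priSG-A. That over Tagln, a gene of peritubular smooth muscle-like cells (Gm48529), had 4.62, 4.45 and 1.05 FPKM in plpSC, against 9.00, 3.89 and 5.13 FPKM in priSG-A. At both loci the types overlapped. The locus overlapping Piwil1, a gene of meiotic and later germ cells (4930553I04Rik), had 0, 0.0459 and 0.757 FPKM in plpSC, against 0, 0 and 3.06 FPKM in priSG-A. Loci overlapping Nanos2, Id4, Cyp11a1, Cdh5 and Prm1 stayed below 0.5 FPKM in all 6 libraries. In such bulk libraries, fewer cells of a type and less RNA per cell cannot be told apart, and the part of other cells in the differences was not tested.

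Among the 1574 loci themselves, 295 were higher in both replicate 3 libraries than in any of the other 4, and 565 were lower. The 295 had medians of 1.34, 1.58 and 9.01 FPKM in plpSC, against 1.29, 1.42 and 5.52 FPKM in priSG-A. The 565 had medians of 2.43, 2.14 and 0.233 FPKM in plpSC, against 2.29, 1.96 and 1.03 FPKM in priSG-A. In both sets, replicates 1 and 2 of the types were close, and plpSC replicate 3 stood further out than priSG-A replicate 3, above it at 203 of the 295 and below it at 543 of the 565. Gm2762, an intergenic locus, had 1.25, 1.72 and 244 FPKM in plpSC, against 0.0634, 0.671 and 202 FPKM in priSG-A. Gm11837, which shares exon sequence with Necab1 on the other strand, had 3.57, 4.06 and 389 FPKM in plpSC, against 3.62, 3.93 and 214 FPKM in priSG-A. On the low side, AU020206 had 19.5, 16.7 and 0.141 FPKM in plpSC, against 18.8, 16.3 and 4.88 FPKM in priSG-A. These 3 loci were picked for standing apart in replicate 3, so their separation by number was set by that choice. The type did not separate their libraries.

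The size of the difference between the types therefore depended on the replicate number. The median absolute difference, on the log2(FPKM + 1) scale, was 0.24 at replicate 1, 0.22 at replicate 2 and 0.69 at replicate 3. Past 1 on that scale, 19 loci were higher and 37 lower in plpSC at replicate 1, 9 higher and 24 lower at replicate 2, and 147 higher and 347 lower at replicate 3. The median difference (plpSC minus priSG-A) was 0.00, 0.04 and -0.49 at the 3 numbers. Over the fit of all 6 libraries it was -0.13, and 0.01 after quantile normalization or 0.05 after median scaling, so a locus is best read against that shift. Across loci, the differences at replicates 1 and 2 had r = 0.34, those at 1 and 3 had r = -0.01 and those at 2 and 3 had r = 0.10. The same sign held at all 3 numbers for 124 loci higher in plpSC and 332 lower.

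**Figure D2:**
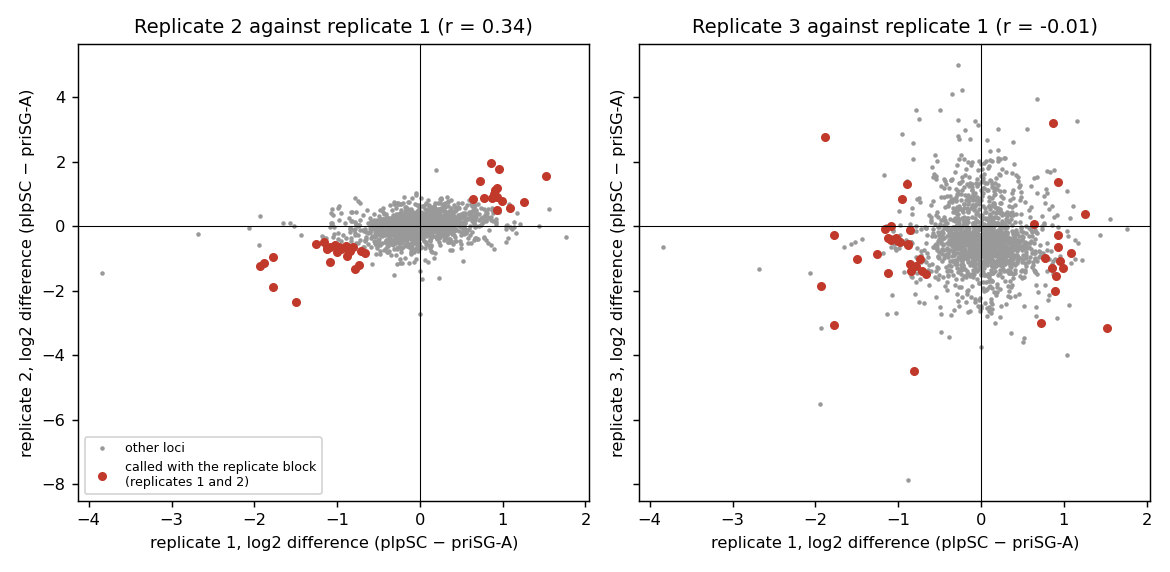
Difference between plpSC and priSG-A in log2(FPKM + 1) for each of the 1574 loci, replicate 1 on the x axis against replicate 2 (left) and replicate 3 (right). Red points are the 41 loci called with the replicate block on replicates 1 and 2; at replicate 3, 4 of its 15 higher loci and 22 of its 26 lower loci had the same direction.

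Past 1 on the log2 scale at all 3 numbers, 0 loci were higher in plpSC and 3 were lower: Gm20412, Gm43078 and Gm43126. Gm20412 is a processed transcript at chr2:158117154-158117905 (mm10, plus strand) that lies within Rprd1b and shares exon sequence with Tgm2, the transglutaminase 2 gene, on the other strand. It had 1.47, 2.20 and 0.658 FPKM in plpSC, against 7.47, 10.7 and 12.9 FPKM in priSG-A. Every plpSC library was below every priSG-A library, by a clear margin and in replicate 3 as well. Behind these levels stood 22, 44 and 12 fragments in plpSC, against about 104, 257 and 253 in priSG-A, as implied by the FPKM steps. The mean was 1.44 ± 0.77 FPKM in plpSC and 10.4 ± 2.8 FPKM in priSG-A (SD, n = 3 each). The log2 fold change was -2.24 ± 0.48 (SE) in limma's fit with all 6 libraries, the largest with non-overlapping libraries and at least 5 FPKM in the higher type, with an unadjusted p of 0.00157 and an adjusted p of 1.00. With the replicate block on replicates 1 and 2 it was -1.83 ± 0.19 (SE), with an adjusted p of 7.08e-05. Over the 9 settings of that block fit, limma's adjusted p ran from 3.45e-10 to 0.846, the highest being that of all 6 libraries, and the locus passed in 6 of them.

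Gm43078, a TEC locus of 168 bp at chr3:35413833-35414000 (mm10, plus strand), had 18.5, 9.48 and 15.5 FPKM in plpSC, against 53.8, 52.2 and 32.7 FPKM in priSG-A. The libraries of the types did not overlap, and the log2 fold change was -1.62 ± 0.45 (SE) with all 6, with a limma adjusted p of 1.00. Without replicate 3 and with the block it was -1.92 ± 0.22 (SE), with a limma adjusted p of 0.00191 (from 2.51e-13 to 0.846 over the settings). The locus is shorter than the inferred fragments of 200 to 215 bp, as are 13 of the 1574, so its FPKM rests on a length correction that is uncertain. Gm43126 is antisense and shares exon sequence with Ccnd2, the cyclin D2 gene, which acts in the cell cycle and in spermatogonia. It had 5.19, 3.56 and 0 FPKM in plpSC, against 22.6, 9.80 and 2.58 FPKM in priSG-A. At every number plpSC was the lower, but plpSC replicate 1 exceeded priSG-A replicate 3, so the types overlapped over 6 libraries. With the block on replicates 1 and 2 the log2 fold change was -1.59 ± 0.20 (SE), with a limma adjusted p of 0.00125 (from 4.81e-12 to 0.846 over the settings).

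Over all 6 libraries, 12 loci (0.762%) had all 3 plpSC libraries above all 3 priSG-A libraries, and 43 (2.73%) had all 3 below. Some loci separate in this way even when types do not differ. The counts were not compared with that number, so they are no evidence of a difference. Named here are those with a mean of at least 5 FPKM in the higher type, up to 12 a direction by log2 fold change. They were 2 of the higher loci and 12 of the lower. The higher pair were 1700023H06Rik and Gm37206. 1700023H06Rik, within an intron of Arrdc3 on the other strand, had 5.91, 4.25 and 11.7 FPKM in plpSC, against 4.14, 3.55 and 3.23 FPKM in priSG-A. Gm37206, which shares exon sequence with Rbm4b on the other strand, had 4.63, 4.94 and 22.2 FPKM in plpSC, against 3.87, 4.41 and 4.37 FPKM in priSG-A. In both, plpSC replicate 3 was by far the highest library. The log2 fold change of 1700023H06Rik was 0.74 ± 0.50 (SE) with all 6 libraries and 0.32 without replicate 3, and that of Gm37206 was 0.82 ± 0.63 and 0.17.

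Of the lower loci, Gm15270 shares exon sequence with Ccn2 (connective tissue growth factor) on the other strand. It had 5.61, 10.2 and 0.698 FPKM in plpSC, against 13.5, 13.5 and 10.2 FPKM in priSG-A. Its plpSC replicate 3 was far below the rest, and its log2 fold change was -1.41 with all 6 libraries and -0.76 without replicate 3. The intergenic Gm35533 had 8.57, 7.72 and 0.150 FPKM in plpSC, against 11.5, 14.3 and 11.3 FPKM in priSG-A, with log2 fold changes of -1.54 and -0.60. Here too the lowest library was plpSC replicate 3, with about 3 fragments. Gm42427, a TEC locus, was lower in plpSC by 0.99, 0.39 and 0.66 on the log2 scale at the 3 numbers, with 4.57, 4.37 and 3.23 FPKM in plpSC, against 10.1, 6.04 and 5.71 FPKM in priSG-A. Its priSG-A replicate 1 was the highest library, and its log2 fold changes were -0.68 and -0.69. Gm46620, an intergenic locus on chromosome 18, had 3.06, 2.70 and 3.76 FPKM in plpSC, against 7.63, 4.81 and 5.36 FPKM in priSG-A, without overlap over the 6 libraries. It was called lower with the block (log2 fold change -0.87 ± 0.20, limma adjusted p 0.0287). Over the 8 settings of that fit that kept it, the limma adjusted p ran from 0.0207 to 0.846, and it passed in 2. The other 8 were Gm20412 and Gm43078, above, with Gm43778, 2010204K13Rik, BC051226, Tug1, Gm17344 and Gm49701. The last 6 had log2 fold changes of -1.44 to -0.35 with all 6 libraries and -0.67 to -0.17 without replicate 3.

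**Figure D3:**
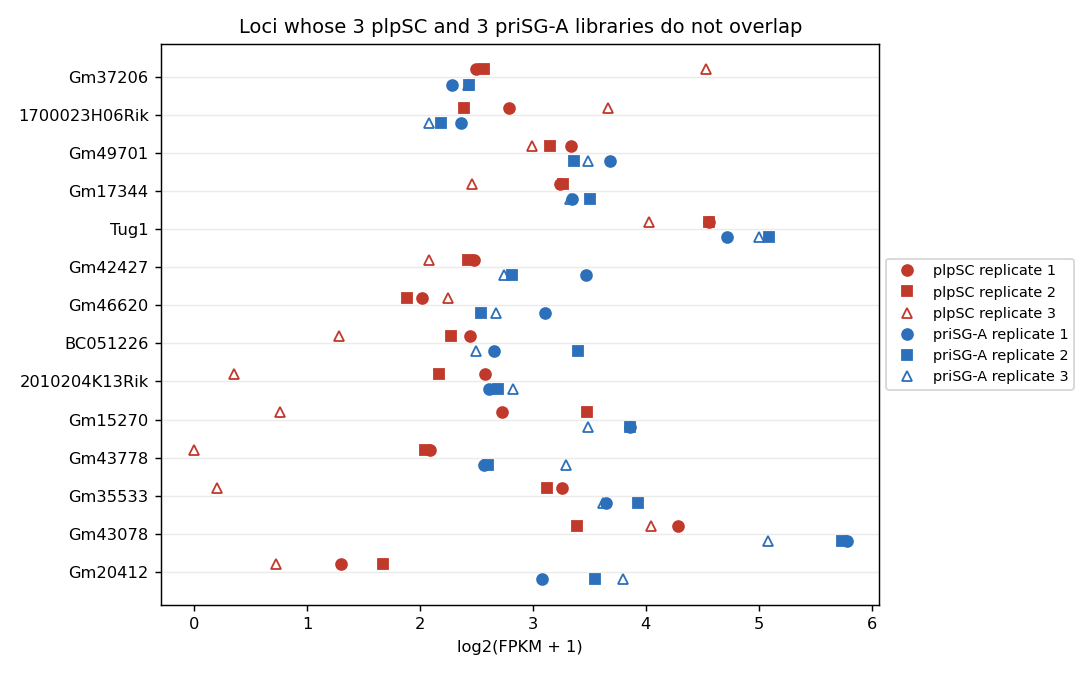
Level in log2(FPKM + 1) of the 14 named loci whose plpSC (red) and priSG-A (blue) libraries do not overlap and whose mean reaches 5 FPKM in the higher type. At most 12 a direction were named. Circles, squares and open triangles are replicates 1, 2 and 3. In Gm43778, Gm35533, Gm15270 and 2010204K13Rik the open red triangle lies far left of the other red points, while in Gm20412, Gm43078, Gm46620 and Gm49701 the plpSC points lie within 1 of each other.

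Tug1, a conserved RNA whose loss in the mouse is known to impair male fertility, was among them. Tug1 shares exon sequence with Morc2a on the other strand. It had 22.6, 22.6 and 15.3 FPKM in plpSC, against 25.4, 33.0 and 31.0 FPKM in priSG-A. All 3 plpSC libraries were below all priSG-A libraries, with means of 20.2 ± 4.2 FPKM in plpSC and 29.8 ± 3.9 FPKM in priSG-A (SD, n = 3 each). The log2 fold change was -0.55 ± 0.40 (SE), with a limma adjusted p of 1.00, and -0.34 without replicate 3. The other germ cell RNA of the list that was tested, Gm2044, host of Mir202, had 19.5, 4.09 and 0 FPKM in plpSC, against 8.81, 5.55 and 4.43 FPKM in priSG-A. Its plpSC libraries held both the highest and the lowest of the 6 values.

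Among replicates 1 and 2 alone, the plpSC pair lay above the priSG-A pair at 245 loci (15.6%) and below it at 206 (13.1%). These counts, too, were not compared with the number that would separate if the types did not differ. Past 1 on the log2 scale at both numbers, 1 locus was higher (Gm10505) and 6 were lower (H19, Gm20412, Gm37955, Gm43535, Gm43078 and Gm43126). Gm10505 had 2.10, 1.96 and 4.32 FPKM in plpSC, against 0.0796, 0 and 46.2 FPKM in priSG-A. It was called higher with the block on replicates 1 and 2 (log2 fold change 1.55 ± 0.26, limma adjusted p 0.00585, and not called under any of the other 6 settings of that fit that kept it, up to 0.999), while priSG-A replicate 3 was above all other libraries. The TEC locus Gm43535 had 14.1, 7.15 and 5.83 FPKM in plpSC, against 54.6, 16.8 and 0 FPKM in priSG-A, lower at replicates 1 and 2 and higher at replicate 3. It too is shorter than the fragments, at 164 bp.

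Imprinted noncoding RNAs were mostly lower in plpSC in replicates 1 and 2. Of the 9 rows tested (H19, Meg3, Rian, Mirg, Airn, Kcnq1ot1, Peg13 and 2 rows of Snhg14), 7 were lower at both numbers and 0 higher at both, against 27.4% lower and 33.2% higher of all 1574 loci. Their median log2 fold change was -0.49 without replicate 3, where that of all loci was 0.02, and -0.30 with all 6 libraries, where it was -0.13. None passed limma's test in either fit, and 1, Mirg, passed with the block. At replicate 3, 6 of the 9 (66.7%) were lower in plpSC, with a median difference of -0.51, against 74.3% and -0.49 over all loci. Of the 9, 5 were lower in both replicate 3 libraries than in the other 4, as were 565 of all 1574. The rows are not all separate: Meg3, Rian and Mirg lie in 1 cluster, and Snhg14 has 2 of the tested rows. The Snhg14 row counted as lower was nearly level at replicate 2 (difference -0.0076). The list was drawn up with results of these libraries known, so it is no independent evidence of its direction.

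H19, a maternally expressed RNA that hosts the miR-675 pair shown above, had 15.3, 29.6 and 0.562 FPKM in plpSC, against 234, 82.4 and 1.45 FPKM in priSG-A. Within each number plpSC was the lower library, and between numbers the level ranged widely, with both replicate 3 libraries at the bottom. The differences at replicates 1, 2 and 3 were -3.84, -1.45 and -0.65 on the log2 scale. The log2 fold change was -1.98 ± 1.74 (SE) with all 6 libraries and -2.65 ± 0.66 without replicate 3, where limma gave an unadjusted p of 0.00557 and an adjusted p of 1.00. With the block it did not pass (limma adjusted p 0.481), the differences at the 2 numbers being unequal. Mirg, the host of 26 microRNAs at the distal end of the Dlk1-Dio3 cluster, had 0.563, 0.493 and 1.53 FPKM in plpSC, against 2.03, 1.45 and 0.407 FPKM in priSG-A. It was lower in plpSC at replicates 1 and 2 (log2 fold change -0.83 ± 0.21, limma adjusted p 0.0467 with the block, up to 0.920 over its settings) and higher at replicate 3. Of the 7 settings of the block fit that kept Mirg, it passed in 1 only, the main one. Its neighbours in the cluster were also lower in plpSC at replicates 1 and 2, and at replicate 3 level (Rian) or lower (Meg3). Rian, a small nucleolar RNA host, had 8.32, 12.4 and 2.28 FPKM in plpSC, against 19.6, 16.5 and 2.27 FPKM in priSG-A. Meg3 had 11.6, 6.66 and 0.947 FPKM in plpSC, against 18.9, 8.57 and 1.33 FPKM in priSG-A. Neither was called with the block, at limma adjusted p-values of 0.0834 and 0.173.

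Kcnq1ot1, a paternally expressed RNA antisense to Kcnq1, had 1.89, 0.887 and 0.747 FPKM in plpSC, against 2.84, 1.99 and 1.53 FPKM in priSG-A. It was lower in plpSC at each number, by 0.41, 0.67 and 0.53 on the log2 scale, and the types overlapped through plpSC replicate 1. Airn, the RNA antisense to Igf2r, had 4.51, 4.36 and 0.420 FPKM in plpSC, against 5.49, 3.06 and 1.03 FPKM in priSG-A, with no steady direction. Peg13 was lower in plpSC at replicates 1 and 2 and higher at 3, with 1.09, 0.916 and 2.27 FPKM in plpSC, against 1.82, 1.33 and 1.16 FPKM in priSG-A. Of the 18 rows of the list in the deposited table, 9 were not tested. Igf2os and B830012L14Rik stayed below 1 FPKM in all 6 libraries, and the rest were further rows of Snhg14. The highest of these Snhg14 rows had 0.924, 1.36 and 0.105 FPKM in plpSC, against 0.841, 1.32 and 0.484 FPKM in priSG-A. It was slightly higher in plpSC at replicates 1 and 2.

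**Figure D4:**
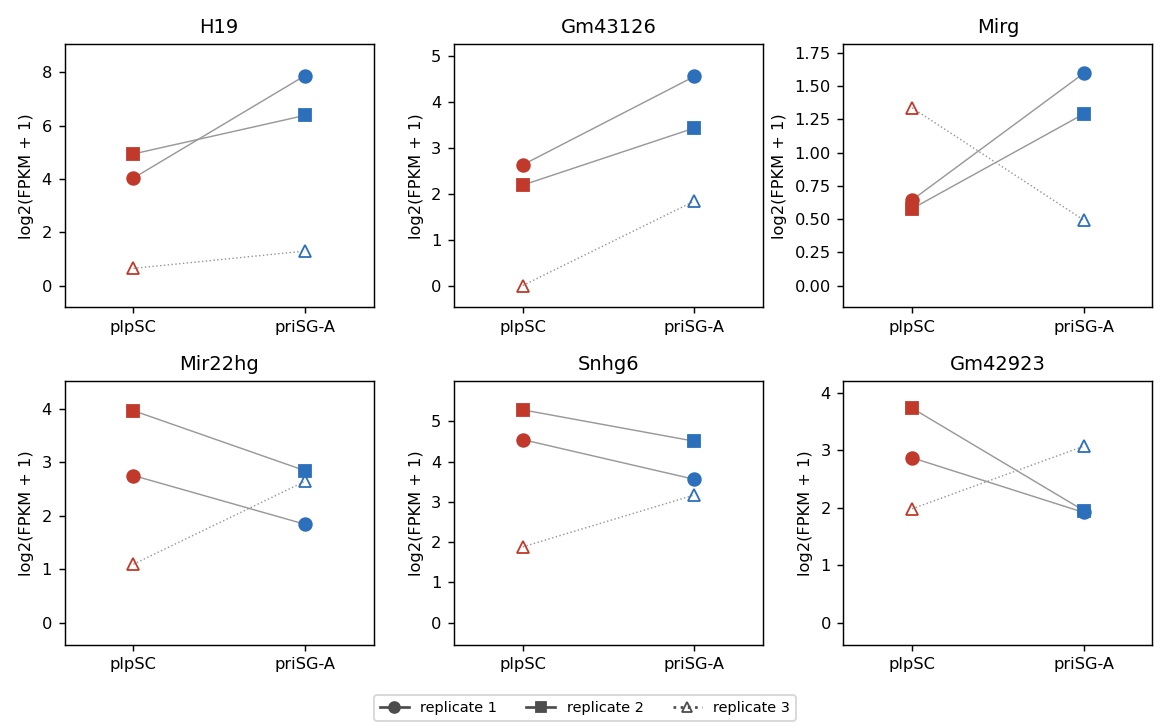
Level in log2(FPKM + 1) of 6 loci in the plpSC (left) and priSG-A (right) libraries, with lines joining the libraries of the same replicate number (dotted for replicate 3). In H19 and Gm43126 the plpSC point is below the priSG-A point at all 3 numbers, while in Mirg, Mir22hg, Snhg6 and Gm42923 the dotted line runs against the other lines.

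Small nucleolar RNA host genes carry guide RNAs for ribosomal RNA modification in their introns. These libraries measure the host loci, whose annotated exons in several cases (Gas5, Snhg1 and Zfas1 among them) overlap small nucleolar RNA genes. Spliced host exons and such sequence were not told apart. Of 19 rows tested, 6 were higher and 5 lower in plpSC at both replicates 1 and 2, and their median log2 fold change was 0.09 without replicate 3 (0.02 over all loci). At replicate 3, 17 of 19 (89.5%) were lower in plpSC, with a median difference of -1.26, against 74.3% and a median of -0.49 over all loci. Of the 19, 10 were lower in both replicate 3 libraries than in the other 4, and 0 higher (565 and 295 of all 1574). Snhg6 had 22.3, 38.0 and 2.68 FPKM in plpSC, against 10.8, 21.7 and 8.0 FPKM in priSG-A. It was higher in plpSC at replicates 1 and 2 (log2 fold change 0.88 ± 0.18, limma adjusted p 0.0146 with the block, from 0.000659 to 0.962 over its settings) and lower at replicate 3, and the only member called. It shares exon sequence with Mcmdc2, a meiosis gene, on the other strand. Snhg1 had 26.5, 45.5 and 2.04 FPKM in plpSC, against 37.5, 54.1 and 19.1 FPKM in priSG-A, lower at each number. Gas5, the most abundant of the list, had 92.5, 133 and 37.1 FPKM in plpSC, against 126, 144 and 74.6 FPKM in priSG-A, also lower at each number with overlapping types. Snhg10 was the only row higher in plpSC at all 3 numbers, with 2.89, 4.96 and 4.69 FPKM in plpSC, against 2.63, 2.36 and 2.69 FPKM in priSG-A. Its types did not overlap, but its mean stayed under 5 FPKM, and its log2 fold change of 0.52 ± 0.44 (SE) had a limma adjusted p of 1.00.

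Of 11 microRNA host transcripts tested, 4 were higher and 5 lower in plpSC at both replicates 1 and 2. Their median log2 fold change was -0.26 without replicate 3 and -0.27 with all 6 libraries. The lists share members, so their summaries are not separate. H19 and Mirg are also in the imprinted list, as are the tested Snhg14 rows of the small nucleolar RNA hosts and Meg3 of the nuclear RNAs. Mir22hg, host of the miR-22 pair, had 5.72, 14.6 and 1.13 FPKM in plpSC, against 2.57, 6.15 and 5.23 FPKM in priSG-A. The plpSC library was the higher at replicates 1 and 2 and the lower at replicate 3, and the log2 fold change was 1.02 ± 0.18 with the block (limma adjusted p 0.0106, from 0.00015 to 0.969 over its settings) but 0.16 ± 0.75 with all 6 libraries. It shares exon sequence with Tlcd2 on the same strand. Mir99ahg, which carries let-7 and miR-99 family members, had 8.59, 6.64 and 19.04 FPKM in plpSC, against 16.8, 8.87 and 6.61 FPKM in priSG-A, lower at replicates 1 and 2 and higher at 3. Mir17hg, host of the miR-17-92 cluster that is active in dividing cells, had 1.44, 3.16 and 0.0349 FPKM in plpSC, against 0.862, 2.81 and 2.15 FPKM in priSG-A. It was slightly higher at replicates 1 and 2, and plpSC replicate 3 held about 5 fragments. Dleu2, host of the miR-15a and miR-16-1 pair, had 9.42, 10.5 and 7.51 FPKM in plpSC, against 6.44, 8.09 and 8.34 FPKM in priSG-A.

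**Figure D5:**
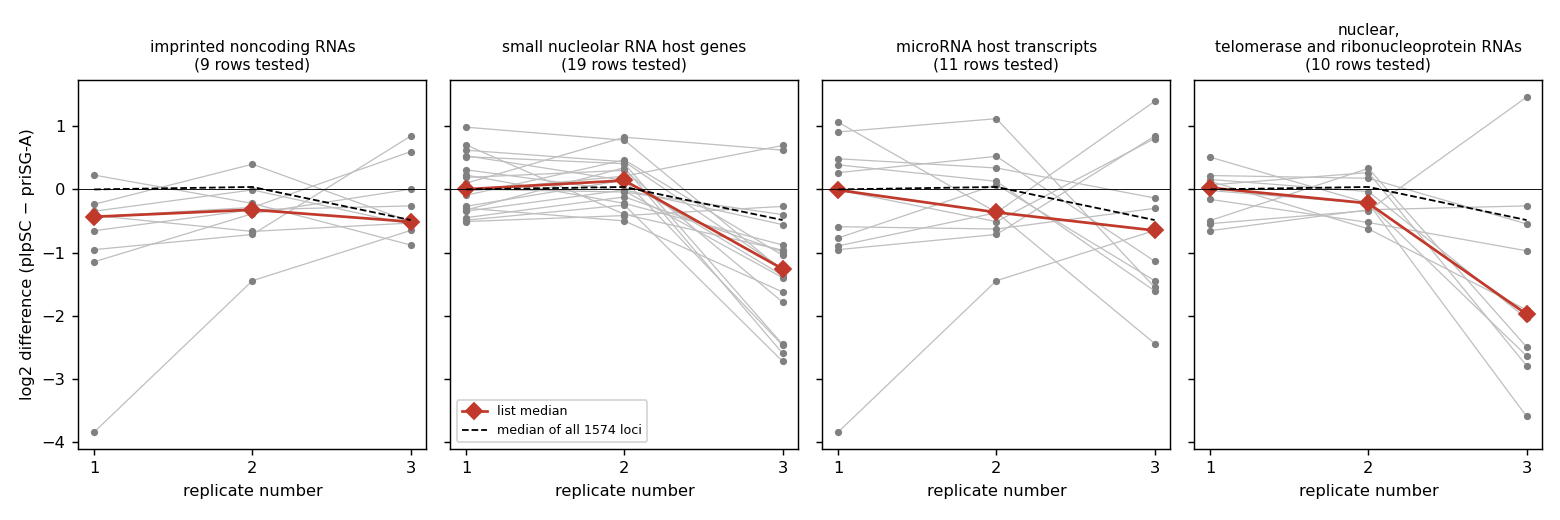
Difference between plpSC and priSG-A in log2(FPKM + 1) at each replicate number for the tested rows of 4 lists (grey lines), with the list median (red) and the median of all 1574 loci (dashed). The small nucleolar RNA hosts and the nuclear RNAs lie near 0 at replicates 1 and 2 and at medians of -1.26 and -1.98 at replicate 3, while the imprinted median is below 0 at all 3 numbers. At replicate 3 the imprinted median (-0.51) is close to that of all loci (-0.49).

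Nuclear, telomerase and ribonucleoprotein RNAs were also mostly lower in plpSC at replicate 3. Of 10 tested, 2 were higher and 4 lower at both replicates 1 and 2, and 9 were lower in plpSC at replicate 3, where their median difference was -1.98 (74.3% lower and a median of -0.49 over all loci). Without replicate 3, their median log2 fold change was -0.10. Malat1, a nuclear speckle RNA, had 3183, 1361 and 149 FPKM in plpSC, against 2854, 1393 and 616 FPKM in priSG-A. Neat1, the scaffold of paraspeckles, had 8.99, 6.97 and 2.28 FPKM in plpSC, against 8.13, 11.3 and 11.3 FPKM in priSG-A. Firre, an X-linked RNA that organises chromatin in the nucleus, had 24.1, 20.1 and 0.170 FPKM in plpSC, against 16.6, 23.5 and 13.2 FPKM in priSG-A. In all 3 the lowest of the 6 libraries was plpSC replicate 3, and replicates 1 and 2 of the types overlapped or lay close. Pvt1, which lies beside Myc, went the other way at replicate 3, with 0.490, 0.443 and 8.41 FPKM in plpSC, against 1.17, 0.820 and 2.41 FPKM in priSG-A. Terc, the telomerase RNA, differed widely by number, with 8.83, 97.8 and 2.23 FPKM in plpSC, against 12.8, 77.5 and 17.2 FPKM in priSG-A. Replicate 2 of both types was the highest in it, as in the RNase MRP RNA Rmrp, which had 5695, 65601 and 2188 FPKM in plpSC, against 5423, 54480 and 15181 FPKM in priSG-A. Both RNAs lack a long poly(A) tail, and Rmrp is only 281 bp long.

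The most abundant loci differed between libraries rather than between types. Gm37750, a TEC locus of 129 bp, had the highest mean, with 10685, 40853 and 27206 FPKM in plpSC, against 9137, 123478 and 44540 FPKM in priSG-A. AY036118 had 7526, 2307 and 12221 FPKM in plpSC, against 9338, 6575 and 12911 FPKM in priSG-A, lower in plpSC at every number with overlapping types. Gm42418, which overlaps AY036118, had 331, 342 and 884 FPKM in plpSC, against 493, 765 and 1027 FPKM in priSG-A. Gm26917, the other rRNA-derived locus, had 753, 2449 and 103 FPKM in plpSC, against 2863, 1984 and 938 FPKM in priSG-A. These 3 rRNA-derived loci had log2 fold changes of -1.60 to -0.63 with all 6 libraries, with SEs of 0.62 to 1.13, and none was called. Gm28967, which shares exon sequence with Ncapd2 and holds Scarna10, a small Cajal body RNA, had 4168, 2267 and 659 FPKM in plpSC, against 2315, 1913 and 1118 FPKM in priSG-A.

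Transcripts named from adult testis clones were mostly higher in plpSC at replicate 3, and X-linked loci mostly lower, as were all loci. Of the 107 loci tested with such RIKEN names, 35 were higher and 21 lower in plpSC at both replicates 1 and 2 (32.7% and 19.6%, against 33.2% and 27.4% of all loci). At replicate 3, 71 were higher and 36 lower (404 and 1169 of all loci), and 64 of the 107 were higher in both replicate 3 libraries than in the other 4, as were 295 of all 1574. With the block, 2 of the 107 were called higher, against 0.953% of all loci. Of these, 1700048O20Rik had 6.59, 13.1 and 13.8 FPKM in plpSC, against 3.85, 6.92 and 13.0 FPKM in priSG-A, and 1700108F19Rik had 3.58, 1.17 and 56.4 FPKM in plpSC, against 1.51, 0.195 and 5.25 FPKM in priSG-A. Both were higher in plpSC at all 3 numbers. Of the 28 tested loci on the X chromosome, which is silenced during the pachytene stage of male meiosis, 8 were higher and 8 lower at both replicates 1 and 2. At replicate 3, 24 of the 28 (85.7%) were lower in plpSC, where 74.3% of all loci were, and 18 of the 28 were lower in both replicate 3 libraries than in the other 4, as were 565 of all 1574. Whether X-linked loci differ from the rest was not tested. Ftx, the tested member of the X-inactivation list, had 3.09, 3.40 and 1.42 FPKM in plpSC, against 5.15, 5.80 and 1.98 FPKM in priSG-A, lower at each number. Xist stayed below 0.25 FPKM in all 6 libraries.

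Of the 45 opposite-strand transcripts named after coding genes, 15 were higher and 13 lower at both replicates 1 and 2, and 0 were called in any of the 3 fits. Hoxd3os1, which shares exon sequence with Hoxd3 and Hoxd4, was the tested member of the HOX list, with 0.846, 1.32 and 23.4 FPKM in plpSC, against 2.64, 0.513 and 12.4 FPKM in priSG-A. It stood high in replicate 3 of both types. Of 28 pluripotency-associated transcripts in the table, 2 were tested, since the others did not reach 1 FPKM in 3 libraries. Platr14 had 0.372, 1.92 and 2.62 FPKM in plpSC, against 1.81, 2.42 and 4.74 FPKM in priSG-A, and Platr20 had 1.62, 1.33 and 1.05 FPKM in plpSC, against 2.02, 1.36 and 0.854 FPKM in priSG-A.

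The 41 loci called with the block had absolute log2 fold changes of 0.71 to 1.92 over replicates 1 and 2, and in 30 of them the 4 libraries did not overlap between types. Over all 1574 loci, the plpSC pair lay above the priSG-A pair at 15.6% and below it at 13.1%. The 41 were called on these same 4 libraries, so their separation is no independent evidence. They comprised 15 intergenic, 10 antisense, 7 TEC and 6 processed transcript loci, and 14 of the 41 share exon sequence with a coding gene on the other strand, against 595 of all 1574. In 23 of the 41 the mean stayed under 5 FPKM in the higher type. Of those higher in plpSC, Gm42923, within an intron of Fgf2 on the other strand, had 6.30, 12.3 and 2.94 FPKM in plpSC, against 2.77, 2.86 and 7.39 FPKM in priSG-A. Gm28050 kept its direction at replicate 3, with 4.07, 6.31 and 2.23 FPKM in plpSC, against 1.12, 3.31 and 1.45 FPKM in priSG-A. Gm15265, which shares exon sequence with Pi4kb, did not, with 5.50, 5.66 and 1.05 FPKM in plpSC, against 2.40, 2.53 and 2.21 FPKM in priSG-A. The antisense Gm48597, over Gcnt4, had 8.26, 4.94 and 0 FPKM in plpSC, against 3.98, 1.96 and 2.99 FPKM in priSG-A. Of those lower in plpSC, 1300002E11Rik had 2.62, 1.68 and 1.15 FPKM in plpSC, against 5.04, 5.11 and 3.30 FPKM in priSG-A, with no overlap over the 6 libraries. It shares exon sequence with Map3k13 on the same strand. Gm14230 had 3.74, 6.06 and 0.201 FPKM in plpSC, against 6.48, 11.5 and 2.34 FPKM in priSG-A. C230038L03Rik, which shares exon sequence with Nars2 and Tenm4, turned round at replicate 3, with 1.27, 0.942 and 9.92 FPKM in plpSC, against 3.22, 1.94 and 3.40 FPKM in priSG-A. The direction at replicate 3 was thus the same for most of the lower loci and for few of the higher ones, where 74.3% of all loci were lower in plpSC.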

How the data were processed

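Per the labels' protocols, total RNA (Trizol) went into Illumina TruSeq RNA libraries. The authors deposited 1 table of FPKM values. The submitters' processing notes name HISAT2, StringTie and mm10; versions, annotation, strand counting and FPKM denominator: not given in the sources used here. Duplicates are mentioned in the series text, whereas 3 numbered samples a type are labelled. Gene types and overlaps came from GENCODE M21 (13191 of 13218 identifiers matched, 13098 with the same start and end). Depth was inferred from the steps between low FPKM values: 98.7 to 99.3% came out whole within 0.02.

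Values were tested as log2(FPKM + 1) with limma 3.58.1 in R 4.3.3 (trend and robust estimation, two-sided, Benjamini-Hochberg over 1574 loci, threshold 0.05). The scale understates changes of low genes. Count tests were not applied to FPKM. Deviations from the type mean correlated between same-numbered libraries (r = 0.70, 0.74 and 0.75 across loci, all above 0.1; 0.71 between the types' replicates 1 and 2), so the replicate numbers were taken to pair the libraries, from the data and not from the labels. Unblocked fits remain the main ones.

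Loci were named by rule. First came those whose libraries do not overlap, with a mean of at least 5 FPKM, up to 12 a direction. Then came opposite signs at replicate 3, the 6 highest means, and list members. The loci named only for the block fit, for passing 1 on the log2 scale at several numbers, for standing apart in replicate 3 or for overlapping a marker gene were picked with their values in view. The members and lists were chosen with earlier results of these data known. Tables and figures used Python 3.11.15, numpy 2.4.6, pandas 2.3.3 and matplotlib 3.10.9. The alternatives are in the closing section.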

Additional observations from a re-analysis of the deposited data

How the results depend on the processing

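With all 6 libraries, 0 loci were called under any of the 18 alternatives run: pseudocounts of 0.1 and 0.5, a filter of 5 FPKM or none, quantile and median scaling, no trend and robust estimation, all 18 libraries, the replicate block and each library or replicate number left out. Unadjusted p-values under 0.05 ranged from 2 to 120 loci, the most without a filter (11351 loci tested). Without replicate 3, the count was 0 under every alternative but the replicate block (41) and leaving out 1 further library (0 to 3; the lone library is assumed to vary like the other type). Without plpSC replicate 1, 1700124L16Rik and Gm28874 were called higher and Gm38268 lower. Without plpSC replicate 2, Gm37622 and Gm37955 were called lower. The block changed no other call. The alternatives to the block fit were chosen after seeing the data: it called 17 loci with a pseudocount of 0.1, 1 with 0.5, 26 with a filter of 5 FPKM (12 shared with the 41), 40 with a filter over the 4 libraries (36 shared), 0 after quantile normalization, 0 without trend and robust estimation, 1 with the trend only and 0 with all 6 libraries. Of the 76 named rows, 42 changed sign in at least 1 setting, and 0 were called in any setting with all 6 libraries. The cause was not tested. Depth limits loci near 1 FPKM, and the depth itself is an estimate.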
